A study of Homo sapiens with 18 samples.

Results

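The 42 genes described here encode the integrin chains, the laminin chains, fibronectin, vitronectin and the nidogens. They were taken by symbol (integrin alpha and beta genes, laminin alpha, beta and gamma genes, FN1, VTN, NID1 and NID2) from the 28277 genes of the count table. The set was chosen with earlier results of these data known. The set holds 18 integrin alpha, 8 integrin beta, 5 laminin alpha, 4 laminin beta and 3 laminin gamma chains and 4 glycoproteins.

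RNA-seq was performed on OVCAR3-KRAB, a human ovarian cancer cell line that carries the CRISPRi repressor dCas9-KRAB from a lentivirus. The cells received a control guide against a Gal4 promoter (sgControl, sgCtl) or 1 of 2 guides against the promoter of the long noncoding RNA XIST (sgXIST7 or sgXIST9). Each of the 3 lines was kept in normoxia or placed in a chamber with 1% oxygen for 24 h (hypoxia), with 3 replicates in each of the 6 groups and 18 libraries in all. Every group, the controls included, carried dCas9-KRAB and a guide, passed blasticidin and puromycin selection, and grew in DMEM with serum. The study describes the cells as clonal, so that the effect of a guide and a difference between clones cannot be told apart in any comparison between lines. The labels do not say whether the replicates came from separate cultures, and p-values then measure only the spread between these libraries. In bulk RNA, fewer cells with a transcript and less transcript per cell cannot be told apart.

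Integrins are cell surface receptors made of 1 alpha and 1 beta chain, which join the matrix outside the cell to actin inside it. The alpha chain largely sets the ligand: ITGAV and ITGA5 bind proteins with an RGD motif such as fibronectin and vitronectin, ITGA1, ITGA2, ITGA10 and ITGA11 bind collagens, and ITGA3, ITGA6 and ITGA7 bind laminins. Laminins are trimers of an alpha, a beta and a gamma chain that polymerise into the basement membrane, where nidogens link them to type IV collagen.

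The targeted gene, XIST, had 4213 to 11209 counts in the sgCtl normoxia libraries and 1589 to 5014 in the sgCtl hypoxia libraries, against 0 to 5 with sgXIST7 and 357 to 1009 with sgXIST9. Libraries held 11794375 to 24906936 counts in genes. Of 5 hypoxia genes (CA9, ADM, NDRG1, VEGFA and ANGPTL4), 4 rose with hypoxia in sgCtl and all 5 in each XIST line, by the rule given below. Of 10 ovarian and epithelial carcinoma markers, EPCAM and KRT18 were abundant, with group means of 160 to 243 and 140 to 219 CPM, counts scaled to a common library size. By contrast MUC16, KRT7, CDH1 and CLDN3 had at most 4 counts in any library, so these defining markers were at or near 0 in the cells labelled OVCAR3. By the rule given below, KRT8 was higher in both XIST lines than in sgCtl. Its log2 fold changes in sgXIST7 and sgXIST9 were 1.92 and 1.89 in normoxia and 2.56 and 2.14 in hypoxia. With hypoxia, PAX8 was called higher in sgXIST7 only (1.54) and KRT8 lower in sgCtl only (-1.06). WT1 and CLDN4 did not pass the filter on low counts. The 6 endothelial markers summed to at most 0.893 CPM and the 5 platelet markers to at most 0.173 CPM in any library. The sgCtl hypoxia replicate 3 library had a mean correlation of 0.959 with its group, the lowest of the 18. Replicate 3 was also the lowest of its group in sgXIST7 and sgXIST9 hypoxia, at 0.9791 and 0.9735. Deviations from the group means correlated at 0.38 to 0.566 between the 3 hypoxia libraries numbered 3. Between those numbered 1 the range was 0.197 to 0.302, and between those numbered 2 it was -0.068 to 0.520.

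The promoters of 5 members that the comparisons below turn on are shown, because each of these genes moved with the guide or with oxygen: the 250 bases before the start, from RefSeq on GRCh38.p14, read 5′ to 3′ along the gene. Capitals mark the core of the hypoxia response element, ACGTG or GCGTG on either strand (CACGT and CACGC on the other).
NID1, chr1:236065091-236065340, minus strand: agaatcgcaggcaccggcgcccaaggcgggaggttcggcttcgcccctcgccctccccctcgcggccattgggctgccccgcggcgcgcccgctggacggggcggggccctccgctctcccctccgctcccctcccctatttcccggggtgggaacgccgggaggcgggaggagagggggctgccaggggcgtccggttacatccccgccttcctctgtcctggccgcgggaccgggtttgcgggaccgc
FN1, chr2:215436069-215436318, minus strand: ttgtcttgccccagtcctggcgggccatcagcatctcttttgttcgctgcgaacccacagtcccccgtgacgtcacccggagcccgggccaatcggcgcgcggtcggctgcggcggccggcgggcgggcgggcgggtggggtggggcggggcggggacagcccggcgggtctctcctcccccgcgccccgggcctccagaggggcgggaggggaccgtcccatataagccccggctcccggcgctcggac
ITGA1, chr5:52787666-52787915, plus strand: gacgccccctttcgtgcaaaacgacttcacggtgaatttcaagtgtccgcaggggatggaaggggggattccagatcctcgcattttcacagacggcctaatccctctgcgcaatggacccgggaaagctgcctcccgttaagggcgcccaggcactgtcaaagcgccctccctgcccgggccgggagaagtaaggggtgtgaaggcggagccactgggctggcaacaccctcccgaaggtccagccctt
ITGA2, chr5:52989102-52989351, plus strand: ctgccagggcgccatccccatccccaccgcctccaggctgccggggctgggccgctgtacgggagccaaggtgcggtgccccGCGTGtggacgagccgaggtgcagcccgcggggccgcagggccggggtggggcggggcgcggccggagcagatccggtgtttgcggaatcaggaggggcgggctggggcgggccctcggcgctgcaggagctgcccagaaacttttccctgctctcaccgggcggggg
LAMA2, chr6:128882888-128883137, plus strand: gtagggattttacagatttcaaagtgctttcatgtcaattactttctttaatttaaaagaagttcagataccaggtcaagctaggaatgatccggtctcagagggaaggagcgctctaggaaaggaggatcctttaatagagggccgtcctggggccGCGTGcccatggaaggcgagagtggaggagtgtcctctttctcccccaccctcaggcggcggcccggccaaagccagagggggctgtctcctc

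Those letters stood in 43.2% of the 35116 promoter windows of the table and in 11 of the 37 windows of the 30 members matched by symbol. ITGA2 and LAMA2 held 1 match each, and NID1, FN1 and ITGA1 held none. The NID1, FN1 and ITGA2 windows held 30, 32 and 26 CpG pairs, above the median of 11 over all windows. A match is a description of the letters only. The promoters of ITGB3, ITGA7, ITGA3, ITGB4 and LAMA1 were among those not matched.

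The mean levels of the members per length, in RPKM, which divides CPM by the gene length in kilobases, ran from 0.00150 for NID2 to 260 for ITGB1. ITGB1, the beta chain shared by most matrix receptors, had the highest mean over the 18 libraries, followed by ITGAV at 148 RPKM. Among the ligands, LAMB2 (50.5 RPKM), LAMC1 (32.0 RPKM) and LAMA2 (10.6 RPKM) led their chain classes. FN1, by contrast, had a mean of only 1.02 RPKM. A filter on low counts left 28 members for testing, and 14 did not pass it, among them ITGA2B, VTN, ITGB2, LAMA4, ITGA9, ITGAD, ITGAX, ITGA8, ITGB6, ITGAL, NID2, ITGA11 and LAMB4. These had mean levels of 0.0884 RPKM or less. Of them, NID2, ITGA11, ITGAL and ITGB6 had 3 or fewer counts in every library and were not detectable at this depth.

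**Figure D1:**
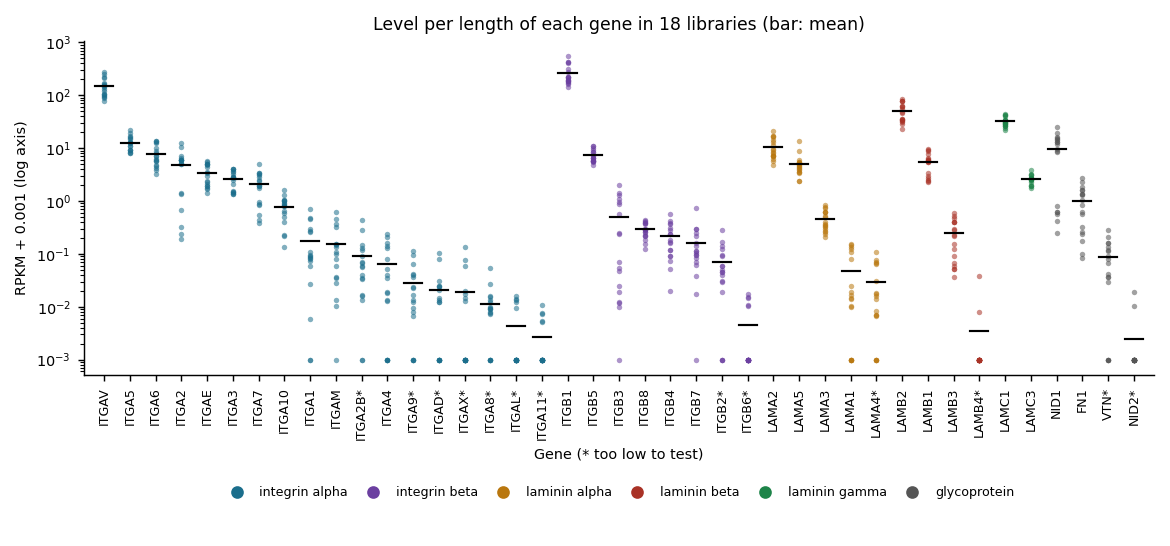
Level per length (RPKM + 0.001, log axis) of the members described here, 1 point per library (n = 18) and a bar at the mean, coloured by class; an asterisk marks members that were too low to test. ITGB1 and ITGAV stand highest, at means of 260 and 148 RPKM, and the untested genes shown lie at means of 0.0884 RPKM or less.

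Within a role the chains were unequal per length. ITGAV took 85.8 to 94.1% of the summed RPKM of the 4 RGD-binding alpha chains in every library. LAMC1 took 89.0 to 95.9% of the gamma chains. LAMB2 took 76.0 to 80.5% of the beta chains in sgCtl normoxia and 92.4 to 94.8% in sgXIST7 normoxia, without overlap.

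XIST knockdown was compared with sgCtl first in normoxia and then in hypoxia. A member passed the test where the adjusted p was under 0.01 and the absolute log2 fold change above 1 (edgeR quasi-likelihood test, Benjamini-Hochberg adjustment over the 14938 genes tested). In normoxia, 6 of the 28 tested members passed in sgXIST7 (4 higher, 2 lower), where 7.76% of all genes did (4.67% higher, 3.09% lower). In sgXIST9 8 passed (3 higher, 5 lower), where 7.7% of all genes did (3.93% higher, 3.77% lower). The median log2 fold change was 0.18 over the tested members and -0.01 over all genes in sgXIST7. In sgXIST9 these medians were -0.12 and -0.02. In hypoxia, 7 members passed in sgXIST7 (4 higher, 3 lower), where 14% of all genes did (7.83% higher, 6.19% lower). In sgXIST9 8 passed in hypoxia (3 higher, 5 lower), where 9.53% of all genes did (6.14% higher, 3.39% lower). There the medians were 0.32 for members and -0.02 for all genes in sgXIST7, and -0.09 and -0.01 in sgXIST9. Both lines were compared with the same sgCtl libraries at each oxygen level, so their values are given side by side without counting their overlap as a result.

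**Figure D2:**
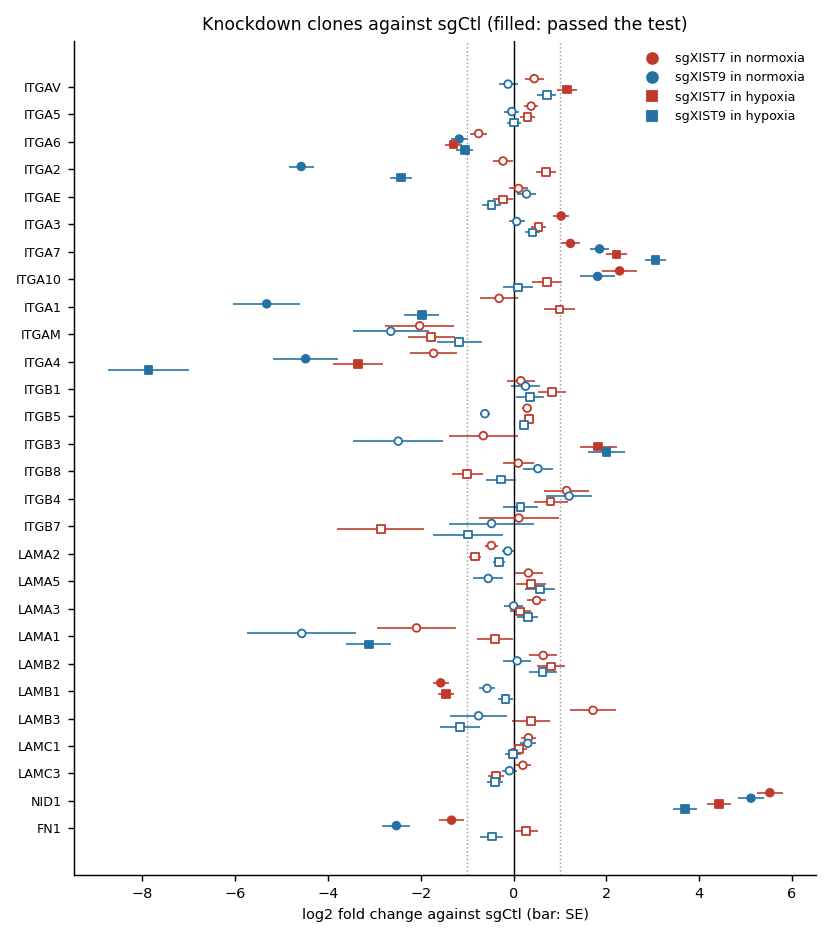
Log2 fold change of each XIST line against sgCtl (x axis; bar, SE of the edgeR fit) for the 28 tested members, in normoxia (circles) and hypoxia (squares), filled where the test was passed; dotted lines mark changes of -1 and 1. NID1 lies farthest to the right in all 4 comparisons, and the wide bars of ITGA1, ITGA4, ITGAM, ITGB3 and LAMA1 belong to genes with 3 or fewer counts in every library of some group, whose fitted sizes depend on the prior count.

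NID1, the nidogen that bridges laminin and type IV collagen (chr1:235975832-236065090, minus strand, hg38), was far higher in both XIST lines than in sgCtl. In normoxia NID1 had 1.41, 3.25 and 2.47 CPM in sgCtl, 89.8, 143 and 93.2 CPM in sgXIST7, and 76.8, 86.6 and 82.4 CPM in sgXIST9. In hypoxia it had 3.56, 4.71 and 3.54 CPM in sgCtl, 68.8, 76.1 and 113 CPM in sgXIST7, and 50.5, 55.3 and 49.0 CPM in sgXIST9. Every XIST-line library lay far above every sgCtl library. The difference was 46.0-fold in sgXIST7 (log2 fold change 5.52 ± 0.28 SE, edgeR adjusted p = 2.28e-10) and 34.7-fold in sgXIST9 (5.12 ± 0.27, edgeR adjusted p = 3.89e-10) in normoxia. In hypoxia it was 21.5-fold (4.42 ± 0.26, edgeR adjusted p = 1.64e-09) and 12.9-fold (3.69 ± 0.25, edgeR adjusted p = 1.12e-08). The other nidogen, NID2, had 2 counts over all 18 libraries. COL1A2, a fibroblast marker, moved the same way, from 0.275 ± 0.173 CPM (SD, n = 3) in sgCtl to 96.7 ± 25.8 in sgXIST7 and 49.2 ± 15.2 in sgXIST9 in normoxia. The 8 fibroblast markers together summed to 921 to 969 CPM in sgCtl normoxia, 1086 to 1167 in sgXIST7 and 628 to 689 in sgXIST9. Of these markers, COL1A1 and COL1A2 were called higher in both XIST lines at both oxygen levels, DCN was called lower in both in hypoxia, and PDGFRB and FAP had at most 8 counts in any library. COL3A1 was called in neither line. Its log2 fold changes in sgXIST7 and sgXIST9 were 0.10 and -0.66 in normoxia and 0.07 and -0.70 in hypoxia. KRT8, an epithelial marker, was also called higher in both XIST lines at both oxygen levels. The part of such differences between the lines in the NID1 result was not tested.

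Of the laminin-binding alpha chains, ITGA7 was higher, and ITGA6 lower, in the XIST lines. ITGA7, known from muscle as a laminin receptor, had 3.82, 4.33 and 3.90 CPM in sgCtl normoxia, against 8.69, 11.5 and 8.06 in sgXIST7 and 13.1, 15.4 and 15.1 in sgXIST9. In hypoxia ITGA7 had 2.0, 1.74 and 2.48 CPM in sgCtl, 8.93, 8.84 and 11 in sgXIST7, and 14.4, 14.2 and 22.8 in sgXIST9. No XIST-line library overlapped the sgCtl libraries. The normoxia folds of ITGA7 were 2.34 and 3.61 in sgXIST7 and sgXIST9 (edgeR adjusted p = 0.000322 and 4.07e-06). In hypoxia the folds were 4.66 and 8.34 (edgeR adjusted p = 1.02e-06 and 2.71e-08). ITGA7 shares 41 exon bases with METTL7B on the opposite strand, which had 16114 counts in all libraries against 3210 for ITGA7. The strand setting of the counting is not given in the sources used here, so a part of METTL7B reads in the ITGA7 counts was not tested.

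ITGA6, the laminin receptor of epithelia that pairs with ITGB1 or ITGB4, had 79.6 to 83.8 CPM in sgCtl normoxia. It had 42.4 to 54.1 CPM in sgXIST7 and 34.6 to 38.2 CPM in sgXIST9, both below every control library. ITGA6 fell by 1.17 ± 0.18 on the log2 scale in sgXIST9 (edgeR adjusted p = 0.000115), and its value of -0.75 in sgXIST7 did not reach the size required (edgeR adjusted p = 0.00502). In hypoxia ITGA6 had 74.9, 61.7 and 43.4 CPM in sgCtl, where replicate 3 was the lowest, and 19.7 to 34.2 CPM in the 6 XIST-line libraries. The log2 fold change was -1.29 ± 0.18 in sgXIST7 (edgeR adjusted p = 3.43e-05) and -1.05 ± 0.18 in sgXIST9 (edgeR adjusted p = 0.000290). The sgXIST9 call in hypoxia was lost without sgCtl replicate 1 or without sgXIST9 replicate 3, as the log2 fold change became -0.87 and -0.92, and with only the groups compared (adjusted p = 0.0268 by edgeR). ITGA3, which binds laminins of epithelial basement membranes, had 6.54 to 7.35 CPM in sgCtl normoxia, 12.2 to 15.9 in sgXIST7 and 6.96 to 7.44 in sgXIST9. ITGA3 was higher by 1.03 ± 0.17 on the log2 scale in sgXIST7 (edgeR adjusted p = 0.000208), near the size required, and the call was lost without sgCtl replicate 3 (0.99) or sgXIST7 replicate 2 (0.93). As a share of the 3 laminin-binding alpha chains per length, ITGA6 took 84.2 to 86.3% in sgCtl, 54.6 to 65.2% in sgXIST7 and 53.7 to 57.6% in sgXIST9 in normoxia. In hypoxia it took 72.7 to 78.7% in sgCtl, 35.1 to 43.9% in sgXIST7 and 32.8 to 45% in sgXIST9.

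The collagen-binding alpha chains ITGA2 and ITGA1 were far lower in sgXIST9 than in sgCtl. ITGA2, the collagen receptor of epithelia and platelets (chr5:52989352-53094779, plus strand), had 46.4, 47.2 and 46.2 CPM in sgCtl normoxia and 41.3, 38.8 and 39.3 in sgXIST7. In sgXIST9 it had 1.83, 1.49 and 2.57 CPM. The sgXIST9 libraries lay far below all others, with a 23.8-fold difference from sgCtl (log2 fold change -4.57 ± 0.27, edgeR adjusted p = 1.75e-09). In hypoxia ITGA2 had 47.0 to 52.0 CPM in sgCtl, 98.9, 84.3 and 55 CPM in sgXIST7, and 10.6, 11.1 and 5.36 CPM in sgXIST9. It was 5.36-fold lower in sgXIST9 than in sgCtl there (edgeR adjusted p = 6.90e-07).

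ITGA1, the other main collagen receptor (chr5:52787916-52959209, plus strand), lies 30142 bases before ITGA2. ITGA1 had 13, 13 and 17 counts in sgCtl normoxia and 21, 14 and 14 in sgXIST7, against 0, 1 and 0 in sgXIST9. The ratio of sgCtl to sgXIST9 was 55.5, with a 95% interval of 9.44 to 2240 that covers counting error only (exact binomial), and the call stood in the edgeR test (adjusted p = 3.48e-05). In hypoxia it had 2.78 to 3.10 CPM in sgCtl, 4.83 to 7.68 in sgXIST7 and 0.273 to 1.14 in sgXIST9, again without overlap. The sgXIST9 value there was 3.94-fold lower than sgCtl (edgeR adjusted p = 0.000787), a call lost with only the groups compared (adjusted p = 0.0338 by edgeR). ITGA1 shares 499 exon bases on the same strand with PELO, so that reads there cannot be assigned to either gene alone. ITGA10, a collagen receptor known from cartilage, moved the other way in normoxia, with 1.21, 0.696 and 1.15 CPM in sgCtl, 4.24, 5.50 and 5.40 in sgXIST7 and 2.63, 4.83 and 3.45 in sgXIST9. ITGA10 was 2.29 ± 0.37 higher on the log2 scale in sgXIST7 (edgeR adjusted p = 0.000208) and 1.81 ± 0.38 higher in sgXIST9 (edgeR adjusted p = 0.00183). The sgXIST9 call was lost without sgCtl replicate 2 or sgXIST9 replicate 2 (adjusted p = 0.0139 and 0.0131 by edgeR). ITGA10 took 66.7 to 82.6% of the collagen-binding transcript per length in sgXIST9 normoxia, where ITGA2 took 17.0 to 33.3%. In sgCtl normoxia ITGA2 had taken 94.9 to 96.4%.

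**Figure D3:**
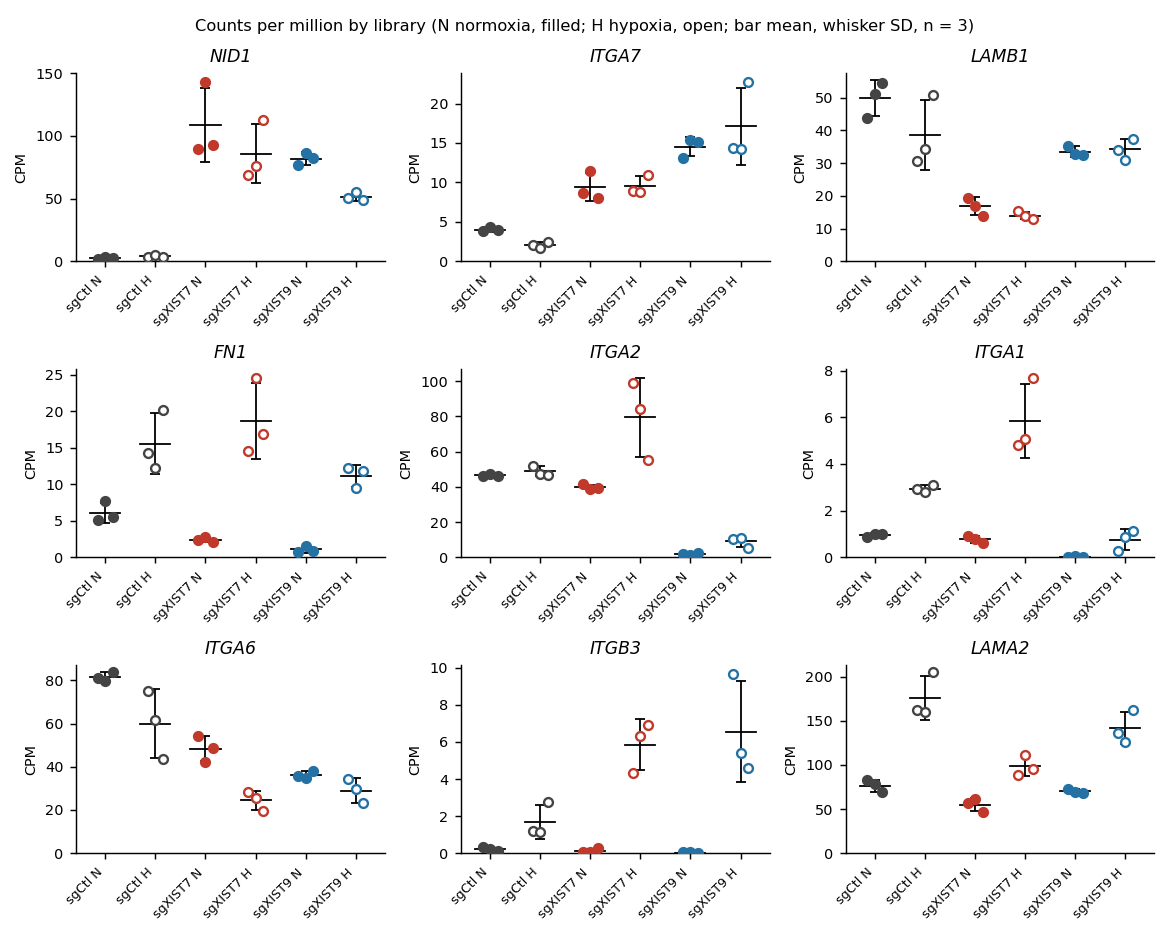
CPM (y axis, from 0) of 9 members in each library, with normoxia filled and hypoxia open; horizontal bars are means and whiskers SDs (n = 3). NID1 and ITGA7 are high in both XIST lines, ITGA2 and ITGA1 are near 0 in sgXIST9 normoxia, and FN1, ITGB3 and LAMA2 are higher in hypoxia than in normoxia in each line.

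ITGA4, a receptor for fibronectin and VCAM1, was low in all lines and lowest in sgXIST9. It passed the filter on low counts only through sgCtl libraries and could hardly be called higher in the XIST lines. Its calls therefore add no support to the counts of lower members given above. It had 9, 13 and 19 counts in sgCtl normoxia, 3, 7 and 7 in sgXIST7, and 2, 0 and 0 in sgXIST9. In hypoxia it had 26, 37 and 14 counts in sgCtl, 2, 3 and 3 in sgXIST7, and 0 in each sgXIST9 library. ITGA4 was at least 32.4-fold lower in sgXIST9 than in sgCtl in hypoxia, against a floor of 3 counts over the group (edgeR adjusted p = 8.46e-06). The ratio of sgCtl to sgXIST7 there was 11.1, with a counting interval of 5.35 to 26.6 (edgeR adjusted p = 0.000192). In normoxia the ratio of sgCtl to sgXIST9 was 26.4, with a counting interval of 6.87 to 226 (edgeR adjusted p = 0.000234). ITGA4 shares 1571 exon bases with CERKL on the opposite strand, which had 7 counts in all libraries.

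ITGAV, the alpha chain that pairs with ITGB1, ITGB3, ITGB5, ITGB6 or ITGB8, had 777, 572 and 1043 CPM in sgCtl hypoxia and 1535, 1803 and 1976 in sgXIST7 hypoxia. The groups did not overlap, and ITGAV was 1.15 ± 0.21 higher on the log2 scale in sgXIST7 (edgeR adjusted p = 0.000318). Without sgCtl replicate 2 the log2 fold change was 0.96 and the call was lost. In sgXIST9 hypoxia ITGAV had 1220, 1087 and 1618 CPM, a log2 fold change of 0.72 ± 0.20 (edgeR adjusted p = 0.0139).

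ITGB3, the beta chain of the vitronectin receptor, had 19, 23 and 31 counts in sgCtl hypoxia, 90, 140 and 80 in sgXIST7 and 212, 119 and 73 in sgXIST9. In CPM every XIST-line library (4.30 to 9.66) lay above every sgCtl library (1.14 to 2.75). The folds of ITGB3 over sgCtl were 3.55 and 4.0 in sgXIST7 and sgXIST9 (edgeR adjusted p = 0.00184 and 0.00115). These calls were lost when only the groups compared were fitted (adjusted p = 0.0146 and 0.0281 by edgeR), for sgXIST7 also without sgCtl replicate 1 or 2, and for sgXIST9 also without sgXIST9 replicate 1. In normoxia ITGB3 had 6 or fewer counts in every library. VTN itself, the ligand, did not pass the filter and had 10 or fewer counts in every library.

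FN1, the fibronectin gene (chr2:215360440-215436070, minus strand), was lower in both XIST lines in normoxia. It had 5.10, 7.66 and 5.57 CPM in sgCtl, 2.33, 2.83 and 2.09 in sgXIST7 and 0.759, 1.54 and 0.876 in sgXIST9. No XIST-line library reached the sgCtl range. The log2 fold change was -1.33 ± 0.28 in sgXIST7 (edgeR adjusted p = 0.00182) and -2.52 ± 0.30 in sgXIST9 (edgeR adjusted p = 8.83e-06). The sgXIST7 call was lost without sgCtl replicate 2 or sgXIST7 replicate 3 (adjusted p = 0.0128 and 0.0129 by edgeR). In hypoxia FN1 had 12.2 to 20.2 CPM in sgCtl, 14.6 to 24.6 in sgXIST7 and 9.44 to 12.3 in sgXIST9, and neither line passed the test against sgCtl (log2 fold changes 0.27 ± 0.25 and -0.47 ± 0.25).

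Among the laminin chains, LAMB1 and LAMA1 differed between the lines. LAMB1, the beta chain of the classical laminins (chr7:107923799-108003161, minus strand), had 43.7, 51.3 and 54.5 CPM in sgCtl normoxia, 19.5, 16.9 and 14.0 in sgXIST7 and 35.4, 32.7 and 32.5 in sgXIST9. In hypoxia the ranges were 30.8 to 50.9 CPM in sgCtl, 12.9 to 15.2 in sgXIST7 and 31.1 to 37.6 in sgXIST9, so that sgXIST9 overlapped sgCtl and sgXIST7 overlapped neither. LAMB1 fell by 1.57 ± 0.17 on the log2 scale in sgXIST7 in normoxia (edgeR adjusted p = 2.99e-06) and by 1.46 ± 0.17 in hypoxia (edgeR adjusted p = 5.35e-06). LAMA1, the alpha chain of the laminin of early embryos, had 19, 28 and 17 counts in sgCtl hypoxia and 5, 2 and 2 in sgXIST9 hypoxia. LAMA1 fell by 3.12 ± 0.48 on the log2 scale there (edgeR adjusted p = 0.000183). LAMC1, which had 176 to 208 CPM in sgCtl normoxia and 244 to 323 in sgCtl hypoxia, passed in no comparison, and neither did LAMB2. LAMB3, the beta chain of the laminin of hemidesmosomes, had a log2 fold change of 1.71 ± 0.49 in sgXIST7 normoxia (edgeR adjusted p = 0.0182), and with the replicate numbers as a block, which pair these groups, it passed at 1.72 (edgeR adjusted p = 0.00807). LAMB2 had 129 to 439 CPM in sgCtl hypoxia, with the highest value in replicate 3, against 319 to 474 CPM in the XIST lines. Without the 3 hypoxia libraries numbered 3, LAMB2 passed the test in sgXIST7 and sgXIST9 (log2 fold changes 1.46 and 1.21, edgeR adjusted p = 5.23e-07 and 5.78e-06). Under the same setting the count for sgXIST7 in hypoxia was 11 in place of 7, since ITGB1, ITGB7 and ITGA2B passed as well, and leaving out sgCtl replicate 3 alone also gave 11.

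The 2 XIST lines were then compared with each other. In normoxia 3 members were called, ITGA1, ITGA2 and LAMB3, all higher in sgXIST7 (3.4% of all genes called, 2.09% higher and 1.31% lower; median log2 fold change 0.53 over members and 0.01 over all genes). In hypoxia 4 were called, ITGA1, ITGA2 and LAMA1 higher and LAMB1 lower in sgXIST7 (4.46% of all genes, 2.06% higher and 2.4% lower; medians 0.16 and -0.03). LAMB1 was just short of the size required in normoxia, at -0.997 ± 0.17 (edgeR adjusted p = 0.000676), and passed as lower in sgXIST7 with median-of-ratios scaling, without the filter and with DESeq2. ITGA2 was 20.4-fold higher in sgXIST7 than in sgXIST9 in normoxia and 8.74-fold higher in hypoxia (edgeR adjusted p = 7.26e-09 and 9.55e-08). ITGA1 was 7.81-fold higher in hypoxia (edgeR adjusted p = 3.57e-05), and the normoxia counts of the 2 lines are those given above (ratio 44.6, counting interval 7.64 to 1798). LAMB3 had 42, 18 and 22 counts in sgXIST7 normoxia and 5, 3 and 5 in sgXIST9. Its call (2.47 ± 0.51 on the log2 scale, edgeR adjusted p = 0.00398) was lost without sgXIST7 replicate 1 or without any 1 of the sgXIST9 replicates (adjusted p = 0.0135 to 0.0293 by edgeR). LAMA1 was 2.72 ± 0.49 higher in sgXIST7 in hypoxia on the log2 scale (edgeR adjusted p = 0.00147), and this call was lost without replicate 2 of either line and with only the groups compared (adjusted p = 0.0116 by edgeR). LAMB1 was 1.29 ± 0.17 lower in sgXIST7 in hypoxia (edgeR adjusted p = 5.66e-05).

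In each line more members were called higher than lower with hypoxia. In sgCtl 11 of the 28 tested members were called (9 higher, 2 lower), where 19.7% of all genes were (11.3% higher, 8.49% lower). In sgXIST7 10 were called (7 higher, 3 lower), where 27.3% of all genes were (15.1% higher, 12.2% lower). In sgXIST9 10 were called (9 higher, 1 lower), where 23.3% of all genes were (14.7% higher, 8.58% lower). The median log2 fold change of the tested members was 0.71 in sgCtl, 0.41 in sgXIST7 and 0.66 in sgXIST9, against 0.02, 0.01 and 0.09 over all genes. FN1, ITGA1, ITGAM, ITGB3 and LAMA1 were called higher in all 3 lines. The share of all genes called the same way in all 3 lines was not computed, so this overlap is not counted as a result. ITGAM, ITGB3 and LAMA1 had 9 or fewer counts in every normoxia library and passed the filter only through hypoxia libraries. Such genes could hardly be called lower, so their calls add no support to the excess of higher over lower. All 3 are among the 9, 7 and 9 members called higher in sgCtl, sgXIST7 and sgXIST9. They also enter the member medians, so the distance of those counts and medians from the values over all genes is in part set by the filter.

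**Figure D4:**
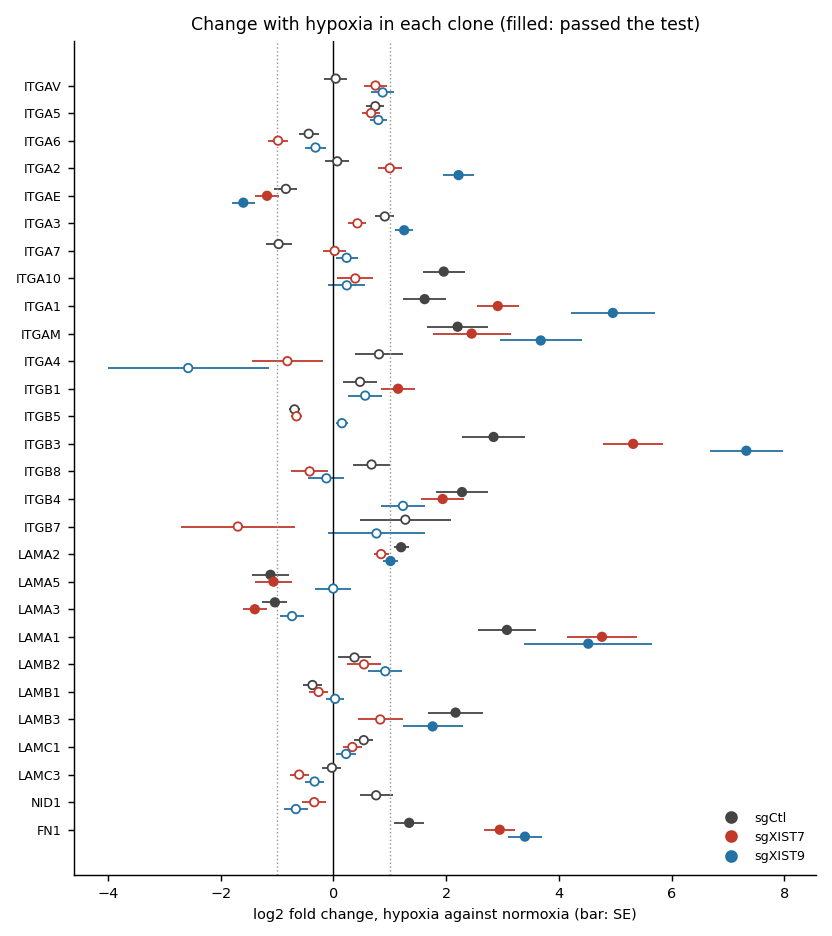
Log2 fold change of hypoxia against normoxia in sgCtl, sgXIST7 and sgXIST9 (x axis; bar, SE of the edgeR fit) for the 28 tested members, filled where the test was passed; dotted lines mark changes of -1 and 1. FN1, ITGA1, ITGAM, ITGB3 and LAMA1 are filled and right of 1 in each line, and fitted sizes of ITGA1, ITGAM, ITGB3 and LAMA1 rest on few normoxia counts.

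FN1 rose in each line without overlap. From the normoxia values given above, it reached 14.3, 12.2 and 20.2 CPM in sgCtl hypoxia, 14.6, 24.6 and 16.8 in sgXIST7 and 12.3, 9.44 and 11.8 in sgXIST9. The rise was 2.54-fold in sgCtl, 7.74-fold in sgXIST7 and 10.5-fold in sgXIST9 (edgeR adjusted p = 0.000408, 1.30e-07 and 9.37e-08). The XIST lines lay below every sgCtl library in normoxia, whereas in hypoxia both ranges overlapped that of sgCtl.

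ITGB3 had 5, 3 and 2 counts in sgCtl normoxia, 2, 1 and 6 in sgXIST7 and 1, 1 and 0 in sgXIST9, against the 19 to 212 counts in hypoxia given above. The rise was 7.17-fold in sgCtl and 39.9-fold in sgXIST7 (edgeR adjusted p = 0.000442 and 2.41e-07). In sgXIST9 the ratio was 197, with a counting interval of 54.2 to 1633 (edgeR adjusted p = 8.58e-08). The usual partner ITGAV was far more abundant and was called in no line with hypoxia, with log2 fold changes of 0.04, 0.75 and 0.87 in sgCtl, sgXIST7 and sgXIST9. ITGA2B, the other partner of ITGB3 and a platelet chain, did not pass the filter. Without the filter it was called higher with hypoxia in sgCtl (log2 fold change 2.44, edgeR adjusted p = 0.00448). Without the hypoxia libraries numbered 3 it was called higher in sgCtl, sgXIST7 and sgXIST9 (2.78, 2.93 and 2.09). These sizes rest on 3 or fewer counts in every normoxia library.

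ITGA1 had 13 to 17 counts in sgCtl normoxia and 35 to 56 in sgCtl hypoxia, 14 to 21 and 89 to 112 in sgXIST7, and 0 to 1 and 6 to 19 in sgXIST9. It rose 3.07-fold in sgCtl and 7.55-fold in sgXIST7 (edgeR adjusted p = 0.00192 and 4.01e-06). In sgXIST9 the ratio was 42.0, with a counting interval of 7.14 to 1695 (edgeR adjusted p = 2.80e-05). The sgCtl call was lost without normoxia replicate 1 (adjusted p = 0.0109 by edgeR). PELO, which overlaps ITGA1 on the same strand and is far more abundant, also rose with hypoxia. Its log2 fold changes were 0.76, 1.15 and 0.39 in sgCtl, sgXIST7 and sgXIST9 (edgeR adjusted p = 0.000487, 5.13e-06 and 0.0348). The part of PELO reads in the ITGA1 rise was not tested. ITGA2 rose 4.66-fold in sgXIST9 (edgeR adjusted p = 3.31e-06). In sgXIST7 its log2 fold change of 1.00 ± 0.22 stopped just short of the size required (edgeR adjusted p = 0.000766), and in sgCtl it was 0.07 ± 0.22. The sgXIST7 value passed with median-of-ratios scaling, without the filter, with only the groups compared, without the hypoxia libraries numbered 3 and with DESeq2.

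LAMA2, the laminin alpha chain known from muscle and nerve (chr6:128883138-129516565, plus strand), was the most abundant laminin alpha chain. It had 82.3, 78.2 and 68.7 CPM in sgCtl normoxia and 162, 160 and 205 in hypoxia. In sgXIST7 it had 56.5, 61.0 and 47.1 CPM in normoxia and 88.9, 112 and 95.2 in hypoxia, and in sgXIST9 72.9, 69.6 and 67.8 CPM and then 136, 126 and 162. Every hypoxia library lay above every normoxia library of its line. LAMA2 rose by 1.2 ± 0.13 on the log2 scale in sgCtl (edgeR adjusted p = 1.72e-06) and by 1.01 ± 0.13 in sgXIST9 (edgeR adjusted p = 7.55e-06), and its value of 0.85 ± 0.13 in sgXIST7 was below the size required (edgeR adjusted p = 4.07e-05). The sgXIST9 value lay near the size required, and was 0.99 with DESeq2, 0.99 with median-of-ratios scaling, 0.99 with only the groups compared, 0.91 without the hypoxia libraries numbered 3, 0.99 without normoxia replicate 3 and 0.91 without hypoxia replicate 3.

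LAMA5 and LAMA3 fell with hypoxia in sgCtl and sgXIST7. LAMA5, the main alpha chain of epithelial basement membranes, had 53.4 to 98.8 CPM in sgCtl normoxia and 27.2 to 47.7 in hypoxia. In sgXIST7 it had 60.9, 153 and 62.4 CPM in normoxia, where replicate 2 was highest, and 40.0 to 47.0 in hypoxia. LAMA5 fell by 1.12 ± 0.33 and 1.06 ± 0.33 on the log2 scale in sgCtl and sgXIST7 (edgeR adjusted p = 0.00940 and 0.00975), close to the threshold. The sgXIST7 call was lost without normoxia replicate 2, where the value was -0.49 (adjusted p = 0.134 by edgeR), or without any 1 hypoxia replicate, and with the replicate numbers as a block it was -0.98, which ended the call. The sgCtl call was lost without any 1 of normoxia replicates 1 and 2 and hypoxia replicates 1 and 2, with -0.85 and adjusted p = 0.0556 by edgeR without normoxia replicate 2. Both LAMA5 calls were also lost with median-of-ratios scaling, without the filter, without the hypoxia libraries numbered 3 and with only the groups compared (adjusted p of 0.0116 to 0.0467 by edgeR). In sgXIST9 the LAMA5 ranges overlapped (38.6 to 63.2 and 40.0 to 56.5 CPM). LAMA3, the alpha chain of the hemidesmosome laminin, had 5.05 to 7.65 CPM in sgCtl normoxia and 2.57 to 3.92 in hypoxia, and 8.98 to 10.3 and 2.99 to 4.40 in sgXIST7. It fell by 1.04 ± 0.22 and 1.39 ± 0.22 on the log2 scale (edgeR adjusted p = 0.000872 and 3.29e-05), and its value in sgXIST9 was -0.73 ± 0.21 (edgeR adjusted p = 0.00772). The sgCtl value for LAMA3 lay near the size required and went to -0.94, -0.96 and -0.90 without normoxia replicate 1 or 2 or hypoxia replicate 3. Its call was also lost with DESeq2 (-0.997), without the hypoxia libraries numbered 3 (-0.90) and with only the groups compared (adjusted p = 0.0173 by edgeR). As a share of the 5 laminin alpha chains per length, LAMA2 took 46.5 to 58.1% in sgCtl normoxia and 82.3 to 85.8% in sgCtl hypoxia, 30.7 to 48.8% and 68.2 to 72.7% in sgXIST7, and 54.0 to 63.0% and 71.0 to 78.3% in sgXIST9.

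LAMA1 counts were 2, 2 and 3 in sgCtl normoxia, 0, 0 and 2 in sgXIST7 and 0 in each sgXIST9 library. In hypoxia they were 19, 28 and 17, then 16, 28 and 12, and 5, 2 and 2. The ratio of hypoxia to normoxia was 8.72 in sgCtl (counting interval 4.0 to 22.6) and 32.9 in sgXIST7 (8.69 to 278), and LAMA1 was at least 2.93-fold higher in sgXIST9, against a floor of 3 counts over the group. The edgeR adjusted p was 0.000147, 9.89e-06 and 0.00353. The sgXIST9 call was lost without any 1 normoxia replicate or hypoxia replicate 1. LAMB3 had 6, 7 and 4 counts in sgCtl normoxia and 29, 42 and 14 in hypoxia, and in sgXIST9 5, 3 and 5 and then 15, 29 and 4, where the groups overlapped. LAMB3 rose by 2.17 ± 0.49 on the log2 scale in sgCtl (edgeR adjusted p = 0.00145) and by 1.76 ± 0.53 in sgXIST9 (edgeR adjusted p = 0.00977). The sgXIST9 call was lost without any 1 normoxia replicate or hypoxia replicate 1 or 2 (adjusted p of 0.0168 to 0.0991 by edgeR) and with median-of-ratios scaling (adjusted p = 0.0103 by edgeR), and the sgCtl call without normoxia replicate 3.

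Among the beta chains and the remaining alpha chains, ITGB1 had 857, 688 and 763 CPM in sgXIST7 normoxia and 1218, 1700 and 2192 in hypoxia. It rose by 1.15 ± 0.31 on the log2 scale there (edgeR adjusted p = 0.00400), but the call was lost without normoxia replicate 2 or 3 or without hypoxia replicate 2 or 3, without the filter on low counts (adjusted p = 0.0168 by edgeR) and without the hypoxia libraries numbered 3 (0.94). In sgCtl ITGB1 had 637 to 728 CPM in normoxia and 721, 572 and 1580 in hypoxia, where the groups overlapped and replicate 3 stood alone. ITGB4, the partner of ITGA6 in hemidesmosomes, had 8, 4 and 2 counts in sgCtl normoxia and 18, 34 and 21 in hypoxia, and 10, 18 and 16 and then 47, 55 and 40 in sgXIST7. ITGB4 rose by 2.28 ± 0.47 and 1.94 ± 0.39 on the log2 scale (edgeR adjusted p = 0.000617 and 0.000379). In sgXIST9 it had 12, 18 and 12 counts and then 31, 50 and 23, a log2 fold change of 1.23 ± 0.39 (edgeR adjusted p = 0.0131). That value passed with the replicate block (1.23, edgeR adjusted p = 0.00849), with DESeq2 (1.22) and without the hypoxia libraries numbered 3 (1.34). ITGA10 rose in sgCtl from 0.696 to 1.21 CPM in normoxia to 5.19, 4.57 and 2.13 CPM in hypoxia (1.96 ± 0.38 on the log2 scale, edgeR adjusted p = 0.000381). Its values in sgXIST7 and sgXIST9 were 0.39 and 0.24. ITGA3 rose in sgXIST9 from 6.96 to 7.44 CPM to 13.4 to 20.1 CPM (1.26 ± 0.16 on the log2 scale, edgeR adjusted p = 7.22e-06), and its values were 0.91 in sgCtl and 0.43 in sgXIST7.

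ITGAE, the partner of ITGB7 on intraepithelial lymphocytes, fell in the XIST lines with hypoxia, from 12.9 to 20.6 CPM to 6.43 to 8.98 in sgXIST7 and from 18.5 to 21.5 to 5.49 to 7.43 in sgXIST9, without overlap. The log2 fold changes were -1.18 ± 0.20 and -1.60 ± 0.21 (edgeR adjusted p = 0.000105 and 5.94e-06), and the sgCtl value was -0.84 ± 0.20 (edgeR adjusted p = 0.00250). ITGAM, the complement receptor chain of myeloid cells, had 4, 9 and 8 counts in sgCtl normoxia and 24, 58 and 24 in hypoxia, a rise of 2.20 ± 0.54 on the log2 scale (edgeR adjusted p = 0.00267). In sgXIST7 it had 1, 3 and 3 counts and then 15, 14 and 6 (ratio 5.87, counting interval 2.57 to 15.7, edgeR adjusted p = 0.00587). In sgXIST9 it had 0, 3 and 1 counts and then 16, 38 and 6 (ratio 14.6, counting interval 5.43 to 55.5, edgeR adjusted p = 0.000403). The ITGAM call was lost in sgCtl without normoxia replicate 1 or 3 or hypoxia replicate 2, and in sgXIST7 without any 1 normoxia replicate or hypoxia replicate 1 or 2. Its obligate partner ITGB2 had 10 or fewer counts in every library and did not pass the filter. Of the 3 leukocyte markers tested, none was called higher with hypoxia in any line. CORO1A was called lower in sgXIST7 and sgXIST9 (log2 fold changes -1.71 and -1.23), CD68 in sgXIST9 (-1.35) and LCP1 in sgCtl (-2.50). The leukocyte markers PTPRC and CD3E had at most 1 count in any library, and the 7 markers summed to 34 to 39.4 CPM in sgCtl normoxia and 16.1 to 30.7 CPM in sgCtl hypoxia. The sums were 39.0 to 50.8 and then 19.8 to 31.1 CPM in sgXIST7, and 55.7 to 76.8 and then 21.8 to 36.0 CPM in sgXIST9. Their part in the ITGAE result was not tested.

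The tests of whether hypoxia acted differently in the lines called 2 members. In sgXIST9 against sgCtl the response differed for FN1 (2.05 ± 0.39 on the log2 scale, edgeR adjusted p = 0.00744) and ITGA2 (2.15 ± 0.35, edgeR adjusted p = 0.00232), where 1.01% of all genes were called (0.663% higher, 0.348% lower). In sgXIST7 against sgCtl no member was called by edgeR, where 1.52% of all genes were (0.904% higher, 0.616% lower). DESeq2 called 1 member in sgXIST7 against sgCtl, FN1. The values of FN1 and ITGA2 in sgXIST7 were 1.61 ± 0.37 and 0.93 ± 0.30 (edgeR adjusted p = 0.0151 and 0.0628). The median log2 difference in response was -0.14 over the members and -0.01 over all genes in sgXIST7, and 0.21 and 0.04 in sgXIST9. Leaving out 1 library at a time gave 0 to 2 calls in sgXIST7 and 0 to 6 in sgXIST9. The count of 2 for sgXIST9 became 6 without sgCtl hypoxia replicate 3, and the count of 0 for sgXIST7 became 2. FN1 was lost in sgXIST9 without any 1 sgCtl normoxia replicate, sgCtl hypoxia replicate 1 or 2, sgXIST9 normoxia replicate 1 or 3, or sgXIST9 hypoxia replicate 1 or 3, and ITGA2 without sgXIST9 normoxia replicate 1 or 2. With only the groups compared FN1 was also lost (adjusted p = 0.0172 by edgeR).

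**Figure D5:**
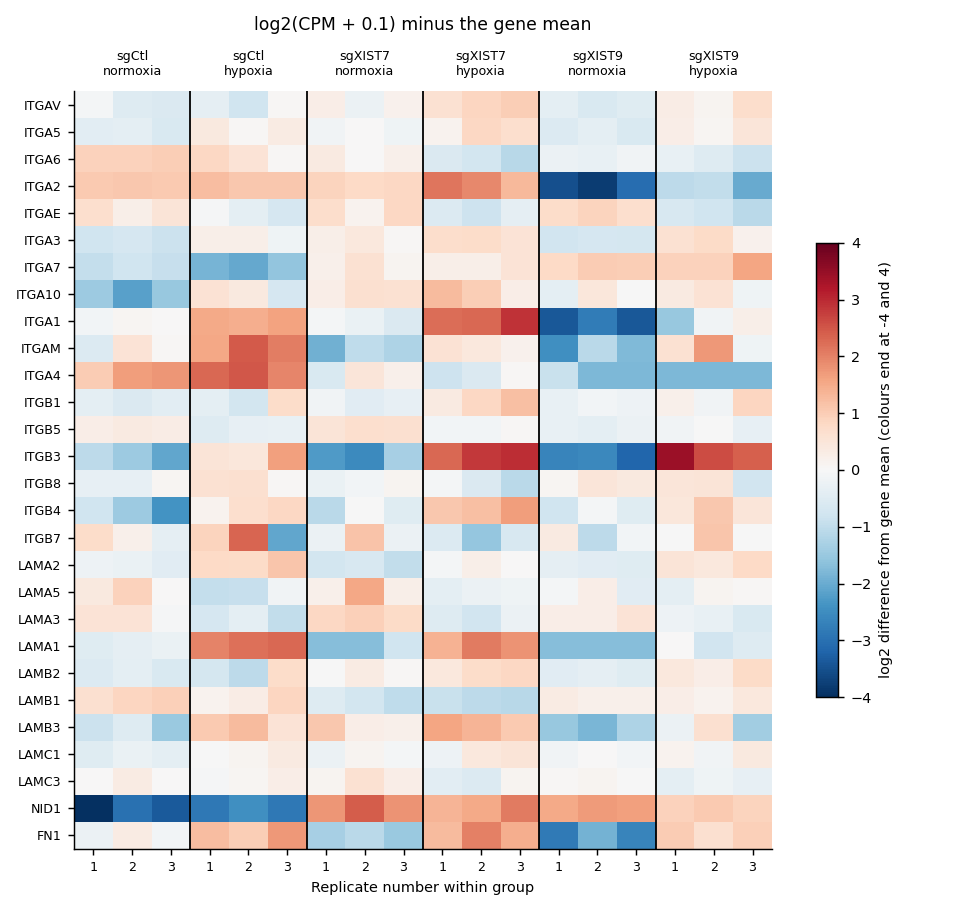
Each of the 28 tested members (y axis) in each of the 18 libraries (x axis, replicates 1 to 3 within 6 groups) as log2(CPM + 0.1) minus the gene mean, red high and blue low, with colours ending at -4 and 4. NID1 is blue in all 6 sgCtl libraries and red in the other 12, ITGA2 and ITGA1 are darkest blue in sgXIST9 normoxia, and ITGB3 is blue in the normoxia libraries.

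In 7 tested members, LAMB2, LAMC1, ITGA5, ITGB5, LAMC3, ITGB8 and ITGB7, no comparison reached the threshold. ITGA5, the fibronectin receptor chain, had 33.7 to 52.3 CPM in the normoxia libraries and 53.8 to 92.3 in the hypoxia libraries, with log2 fold changes of 0.74, 0.67 and 0.80 with hypoxia in sgCtl, sgXIST7 and sgXIST9 (edgeR adjusted p = 0.000842, 0.00137 and 0.000378), all under the size required. ITGB5, a vitronectin receptor chain, had log2 fold changes of -0.69 and -0.66 with hypoxia in sgCtl and sgXIST7 and 0.15 in sgXIST9. ITGB7 shares 1469 exon bases with ZNF740 on the opposite strand, which had 25037 counts in all, so its 151 counts are uncertain.

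Genes of the adhesion complex act between integrins and actin, and 34 of a list of 37 were tested. In normoxia 3 passed in sgXIST7 (FERMT2 and TNS4 higher, DAB2 lower) and 2 in sgXIST9 (TNS4 higher, DAB2 lower), beside 7.76% and 7.7% of all genes. In hypoxia 9 passed in sgXIST7 (6 higher, 3 lower) and 6 in sgXIST9 (5 higher, 1 lower), beside 14% and 9.53% of all genes. Over these 34 genes the median change on the log2 scale was 0.24 and 0.06 in sgXIST7 and sgXIST9 in normoxia and 0.41 and 0.14 in hypoxia, beside the medians over all genes given above. LIMS1, an adaptor that binds integrin-linked kinase, was higher by 2.06 ± 0.13 and 1.05 ± 0.12 on the log2 scale there (edgeR adjusted p = 3.27e-09 and 6.68e-06). Hypoxia changed 10 of them in sgCtl (6 higher, 4 lower), 3 in sgXIST7 (2 higher, 1 lower) and 2 in sgXIST9 (both higher), beside 19.7%, 27.3% and 23.3% of all genes. Their medians with hypoxia were -0.26, -0.05 and 0.03 in sgCtl, sgXIST7 and sgXIST9. TLN1, talin, which activates integrins, rose by 1.08 ± 0.17 in sgCtl, 1.10 ± 0.17 in sgXIST7 and 1.12 ± 0.17 in sgXIST9 on the log2 scale (edgeR adjusted p = 7.06e-05, 3.73e-05 and 4.06e-05), where the sgCtl value was added after it was seen.

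Of 36 other basement membrane and matrix genes, 26 were tested. Against sgCtl 8 passed in sgXIST7 in normoxia (5 higher, 3 lower) and 10 in sgXIST9 (4 higher, 6 lower), and 9 in each line in hypoxia (4 higher and 5 lower in sgXIST7, 5 higher and 4 lower in sgXIST9). The shares over all genes were 7.76% and 7.7% in normoxia and 14% and 9.53% in hypoxia. Their median log2 fold change was 0.14 and -0.37 in sgXIST7 and sgXIST9 in normoxia and -0.03 and -0.0036 in hypoxia. MFGE8, a secreted ligand of ITGAV receptors, was higher by 2.45 to 2.69 on the log2 scale in all 4 comparisons. COL4A1, a chain of type IV collagen, and TNC, a matrix protein bound by integrins, were called lower in all 4. In normoxia COL4A1 had no counts in either XIST line and TNC had no counts in sgXIST9, so the sizes of those differences are not given. Hypoxia changed 8 of these genes in sgCtl (7 higher, 1 lower), 6 in sgXIST7 (4 higher, 2 lower) and 9 in sgXIST9 (7 higher, 2 lower), beside 19.7%, 27.3% and 23.3% of all genes. With hypoxia their medians were 0.58, 0.73 and 0.64 in the same order, against 0.02, 0.01 and 0.09 over all genes. COL7A1, the collagen of anchoring fibrils, rose by 4.06 ± 0.34, 3.27 ± 0.31 and 4.37 ± 0.34 on the log2 scale in sgCtl, sgXIST7 and sgXIST9 (edgeR adjusted p = 7.57e-08, 1.77e-07 and 2.22e-08), and COL4A5, a type IV collagen chain, fell by 2.38 ± 0.21 in sgCtl, 2.01 ± 0.21 in sgXIST7 and 1.21 ± 0.20 in sgXIST9 (edgeR adjusted p = 1.57e-07, 3.93e-07 and 8.03e-05), where the sgXIST9 value was added after it was seen.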

How the data were processed

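Per the methods, the authors isolated total RNA, depleted ribosomal RNA, made stranded libraries and trimmed the reads (Trimmomatic). HISAT2 served for alignment to hg38 and featureCounts for counting. Versions, annotation and the strand setting are not given in the sources used here. The deposited values are raw counts per gene, and 2 broken lines with 0 counts were left out. The strand field was cut short in 1129 genes, whose last listed strand stood for the remaining exons in the search for overlaps.

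All 18 libraries were fitted together with edgeR 4.0.16 (R 4.3.3; TMM scaling, filterByExpr at 10 counts and 15 in total, robust quasi-likelihood test, Benjamini-Hochberg adjustment over 14938 genes). Calls required an adjusted p below 0.01 together with a log2 fold change past 1 in either direction. The SE of a log2 fold change was its size divided by the root of the F statistic. CPM used TMM-scaled library sizes, and RPKM the listed gene length. Members called in any comparison, or most abundant in their class, are described with their values. List genes are named only where called, at most the 6 largest in each comparison. Some genes are not reported here. The members and lists were chosen with earlier results of these data known. The deviations of same-numbered libraries from their group means had every correlation above 0.1 in only some pairs of groups. These were sgCtl and sgXIST7 in normoxia (0.148 to 0.379) and sgCtl and sgXIST9 in hypoxia (0.197 to 0.566). Between sgCtl normoxia and sgCtl hypoxia the correlations were 0.0928 to 0.1086. In hypoxia, replicate 3 of sgXIST7 correlated at 0.38 with that of sgCtl and at 0.492 with that of sgXIST9. Alternatives were DESeq2 1.42.0, other scaling, no filter, the replicate block, fewer groups or libraries and a threshold of 0.05. The procedure was tested on simulated data.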

Additional observations from a re-analysis of the deposited data

Results flagged for a closer look

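The difference in the response to hypoxia between sgXIST9 and sgCtl passed its own test for FN1 and ITGA2. For FN1 the response was 2.05 larger on the log2 scale in sgXIST9 (edgeR adjusted p = 0.00744), and for ITGA2 it was 2.15 larger (edgeR adjusted p = 0.00232). FN1 had 0.759 to 1.54 CPM in sgXIST9 normoxia and ITGA2 had 1.49 to 2.57 CPM, each below every sgCtl library. Both calls were lost when some single libraries were left out, as given above.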

How the results depend on the processing

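Over the member calls, 836 values were recomputed under the alternatives, of which 746 kept their direction and their call, 90 kept the direction and lost the call, and 0 changed direction. With the hypoxia libraries numbered 3 left out, sgXIST7 against sgCtl in hypoxia gave 11 calls, the difference in response gave 5 in sgXIST7 and 6 in sgXIST9. With only the groups compared, sgXIST9 against sgCtl in hypoxia gave 5, hypoxia in sgXIST9 gave 5 and the difference in response in sgXIST9 gave 1. For hypoxia in sgXIST9, LAMA2 lost its call there, and ITGA1, ITGAM, LAMA1 and LAMB3 did not pass the filter and were not tested, so they are not among the 836 values. At an adjusted p under 0.05, sgXIST7 against sgXIST9 in normoxia gave 5, and the differences in response gave 1 in sgXIST7 and 6 in sgXIST9. DESeq2 gave 5, 1 and 4 for the same 3 comparisons. Without the filter on low counts the difference in response gave 1 in sgXIST7. The cause of the other changes was not tested. Leaving out 1 library gave 5 to 6 calls for sgXIST7 and 7 to 8 for sgXIST9 against sgCtl in normoxia, 5 to 11 and 7 to 9 in hypoxia, 8 to 13, 7 to 10 and 7 to 10 for hypoxia in sgCtl, sgXIST7 and sgXIST9, 2 to 4 and 3 to 4 for sgXIST7 against sgXIST9 in normoxia and hypoxia, and 0 to 2 and 0 to 6 for the differences in response. With the replicate block, 68 of 69 member calls stood, the counts against sgCtl in normoxia were 7 in sgXIST7 and 9 in sgXIST9, and the exception was LAMA5 with hypoxia in sgXIST7 (-0.98). A member with 3 or fewer counts per library was at the limit of this depth.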

Other observations

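ITGA1 and ITGA2 lie next to each other on chromosome 5, 30142 bases apart, and both were lower in sgXIST9 than in sgCtl in normoxia. Their neighbourhood was looked up after these values were seen. Of the other genes tested within 500 kb, PELO, MOCS2, LOC257396 and NDUFS4 had log2 fold changes of -0.23, 0.12, 0.45 and -0.12 there (edgeR adjusted p = 0.328, 0.508, 0.148 and 0.736). In hypoxia, where ITGA1 and ITGA2 were also called lower in sgXIST9, the 4 values were -0.59, 0.11, 0.33 and -0.23 (edgeR adjusted p = 0.00623, 0.523, 0.252 and 0.423). The PELO value there was under the size required.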
